A study of Mus musculus with 7 samples.

Results

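Chromatin accessibility was examined at 9 genes that set or carry epithelial identity: the grainyhead-like factors Grhl1, Grhl2 and Grhl3, the zinc finger repressors Ovol1 and Ovol2, the splicing regulators Esrp1 and Esrp2, and the adhesion genes Cdh1 and Epcam. An accessible region was assigned to a gene when, of all protein-coding transcription start sites (TSSs), the one nearest to the midpoint of the region was a TSS of that gene. By this rule 129 of the 119215 accessible regions of the series belonged to the 9 genes, and each gene had between 4 and 40 of them.

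ATAC-seq, in which a transposase inserts sequencing adapters into open DNA, had been run on mammary tumor cells of C57BL/6-background mice with 2 transgenes: MMTV-PyMT, in which the mouse mammary tumor virus promoter drives the polyoma middle T oncoprotein in mammary epithelium, and a BAC-based Dll1-mCherry reporter. Stromal cells that stained for CD45, CD31 or Ter119 had been sorted away. The remaining cells were split by mCherry, which reports the Notch ligand gene Dll1, into 3 Dll1+ and 4 Dll1− samples. Of the 4 numbers in the sample labels 3 occurred in both groups, and these were taken to be tumors that gave both. Both groups carried the oncogene and the reporter, and the age of the mice was not given in the sources used here.

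Each group was available as 1 peak list made from its pooled samples, so no value below has a replicate and no p-value could be computed. A region was called shared when both lists held it, and Dll1+ specific or Dll1− specific when a single list did. Presence in a list depends on depth: the background over the whole genome came to 3.74 reads for Dll1+ and 7.20 for Dll1− cells. A Dll1− list scaled down to the Dll1+ depth kept 97.6% of its rows and left the 9 genes with the same numbers of shared and list-specific regions in all. With so few rows removed the scaling could change few of these numbers, and the part of depth was not tested. A region open in fewer cells and a region less open in each cell cannot be told apart in such data.

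Grainyhead-like factors bind and open enhancers of epithelial genes, among them those of Cdh1 and of other junction genes. The Ovol factors repress the mesenchymal regulators Zeb1 and Zeb2, which in turn repress Cdh1 and the Esrp genes through E-box sequences, so that these factors form a mutual switch between the epithelial and the mesenchymal state. Esrp1 and Esrp2 direct epithelial splicing of receptors and cytoskeletal regulators, Cdh1 encodes E-cadherin of the adherens junction, and Epcam encodes a surface adhesion protein that is widely used to mark carcinoma cells.

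The regions over the start sites carried the E-box of ZEB and SNAI repressors, CACCTG or its complement CAGGTG, in 7 of the 10 windows and at 6 of the 9 genes. A window here is the 201 bases centered on the strongest summit of a region. Over all 13067 accessible regions that hold a protein-coding TSS the share was 14.0%. The 8 stretches below show 9 of the 10 matches, each with 12 bases on either side, because these letters are what the start sites of the 6 genes share. They are read from GRCm38 on the plus strand, with the E-box in capitals and the distance given to the nearest annotated TSS of the gene.
Grhl2, 275 bases downstream, chr15:37233296-37233325: ctcacacaccttCACCTGcacagacttgaa
Grhl3, 19 bases upstream, chr4:135573634-135573663: gctagaccacagCAGGTGcagatgttaact
Esrp1, 48 bases upstream, chr4:11386816-11386845: gcaggtaagagaCACCTGgcggcgcccggc
Esrp2, 91 bases downstream, chr8:106136868-106136897: tgttgggggcggCACCTGcggccgggtgta
Cdh1, 66 bases upstream, chr8:106603270-106603299: ttccttggctgcCACCTGCAGGTGcgtccc
Cdh1, 10 bases upstream, chr8:106603326-106603355: tgcctgcgggctCACCTGgcggccgcagcc
Epcam, 184 bases upstream, chr17:87635780-87635809: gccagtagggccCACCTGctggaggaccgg
Epcam, 102 bases upstream, chr17:87636565-87636594: cgggacagcgcaCACCTGgagagggggcga
In Cdh1 the first stretch holds the motif and its complement end to end. The matches of Grhl2 and Esrp2 and the second match of Epcam lie in annotated exons of those genes. A match is a description of the letters and not evidence that a factor was bound. Windows at Grhl1, Ovol1 and Ovol2 held no E-box, and those of Ovol1 and Ovol2 each held the OVOL motif CCGTTA, which was present in 2.18% of all TSS regions.

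Away from the start sites, 7 regions are printed: the 5 shared ones that ranked lowest in Dll1+ relative to Dll1− tumor cells, the 1 that ranked highest, and the strongest list-specific one, all described gene by gene further on. Each is the 201-base window on the plus strand of GRCm38. Capitals mark matches to any of 8 motifs searched on both strands: GRHL (AACCNGTT), AP-1 (TGANTCA), ZEB and SNAI E-box (CACCTG), OVOL (CCGTTA), TEAD (ACATTCC), RBPJ (GTGGGAA), FOX (TGTTTAC) and KLF/SP (GGGCGG). No motif of this list is contained in another.
Grhl3, 1.9 kb upstream, chr4:135575443-135575643: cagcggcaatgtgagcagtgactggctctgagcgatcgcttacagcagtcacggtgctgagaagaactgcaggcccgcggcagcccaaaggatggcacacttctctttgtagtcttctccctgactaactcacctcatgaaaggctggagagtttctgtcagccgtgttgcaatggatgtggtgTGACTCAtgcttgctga
Grhl3, 51.1 kb upstream, chr4:135624643-135624843: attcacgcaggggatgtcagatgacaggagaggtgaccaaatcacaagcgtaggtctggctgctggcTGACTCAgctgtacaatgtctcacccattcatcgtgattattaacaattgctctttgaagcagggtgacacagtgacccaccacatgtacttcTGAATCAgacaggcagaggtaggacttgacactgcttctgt
Grhl3, 33.3 kb downstream, chr4:135540283-135540483: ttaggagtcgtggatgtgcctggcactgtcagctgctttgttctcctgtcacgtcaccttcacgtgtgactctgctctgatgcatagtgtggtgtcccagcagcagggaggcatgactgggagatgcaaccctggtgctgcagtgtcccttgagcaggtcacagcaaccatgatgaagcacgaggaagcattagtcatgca
Grhl2, 75.4 kb downstream, chr15:37308309-37308509: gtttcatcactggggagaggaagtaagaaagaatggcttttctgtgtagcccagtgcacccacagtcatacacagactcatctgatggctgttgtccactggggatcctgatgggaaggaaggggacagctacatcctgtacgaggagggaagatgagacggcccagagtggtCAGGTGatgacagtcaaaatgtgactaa
Grhl2, 77.6 kb downstream, chr15:37310460-37310660: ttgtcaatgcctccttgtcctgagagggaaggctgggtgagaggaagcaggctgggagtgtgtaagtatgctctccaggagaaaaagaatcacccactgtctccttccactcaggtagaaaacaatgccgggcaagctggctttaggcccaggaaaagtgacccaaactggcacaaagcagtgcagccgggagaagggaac
Ovol2, 6.8 kb upstream, chr2:144338777-144338977: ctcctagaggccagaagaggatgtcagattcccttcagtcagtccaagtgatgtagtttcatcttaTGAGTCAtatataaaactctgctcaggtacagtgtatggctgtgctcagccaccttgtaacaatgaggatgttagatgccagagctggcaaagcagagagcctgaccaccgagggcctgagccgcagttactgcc
Cdh1, 12.8 kb downstream, chr8:106616083-106616283: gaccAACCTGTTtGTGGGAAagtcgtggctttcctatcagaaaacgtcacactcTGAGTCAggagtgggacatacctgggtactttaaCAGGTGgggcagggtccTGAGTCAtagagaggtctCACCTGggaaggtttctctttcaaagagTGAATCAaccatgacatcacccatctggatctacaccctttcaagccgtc
The Cdh1 window held 3 AP-1 matches, 2 E-boxes, 1 GRHL match and 1 RBPJ match. AP-1 matches were present in the Ovol2 window and in 2 of the 3 Grhl3 windows. The Grhl3 window 33.3 kb downstream, which had the largest rank difference of all, held none of the 8 motifs. The Grhl2 window 77.6 kb downstream held none either, and its neighbor 75.4 kb downstream held 1 E-box. None of the 7 windows overlapped an exon.

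Strength was compared in a pair of ways. The strength rank of a region is the percentile of its fold enrichment (reads at the summit over the local background) among all rows of its list, so that 100 is the strongest. The read ratio is the number of reads at the summit in the Dll1+ list over that in the Dll1− list, divided by its median over all 79153 shared regions, so that 1 is the typical region. Each ratio carries an exact 95% interval for counting error.

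Epithelial markers were accessible in both lists. All 6 epithelial markers (Krt7, Krt8, Krt18, Krt19, Cdh1 and Epcam) had an accessible TSS region in each list, with 30 to 272 reads at the summit for Dll1+ and 54 to 472 for Dll1− cells. The TSSs of Ptprc and Pecam1, which encode CD45 and CD31, lay in no region of either list. Of 6 leukocyte markers, the Dll1+ list held none and the Dll1− list held 1, Csf1r with 102 reads. Of 6 fibroblast markers, Pdgfra was in both lists, and Col1a2 and Pdgfrb, with 41 and 55 reads, were in the Dll1− list alone. Of 5 endothelial markers, Kdr was in both lists. The part of these other cells in the results was not tested.

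Most accessible regions of the 9 genes were present in both Dll1+ and Dll1− tumor cells. Of the 129 regions, 97 were shared (75.2%, Wilson 95% interval 67.1 to 81.8), against 66.4% of all regions. A further 8 were Dll1+ specific (6.20%, 3.18 to 11.8), against 9.01% of all regions, and 24 were Dll1− specific (18.6%, 12.8 to 26.2), against 24.6%. These intervals cover counting error only. When the lists were limited to rows above their median fold, 11 were Dll1+ specific and 13 Dll1− specific. Grhl3 held 7 of the 24 Dll1− specific regions and no Dll1+ specific one, while Grhl2 held 5 of the 8 Dll1+ specific regions and 6 of the Dll1− specific ones. Esrp1 had 13 regions, all of them shared.

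**Figure D1:**
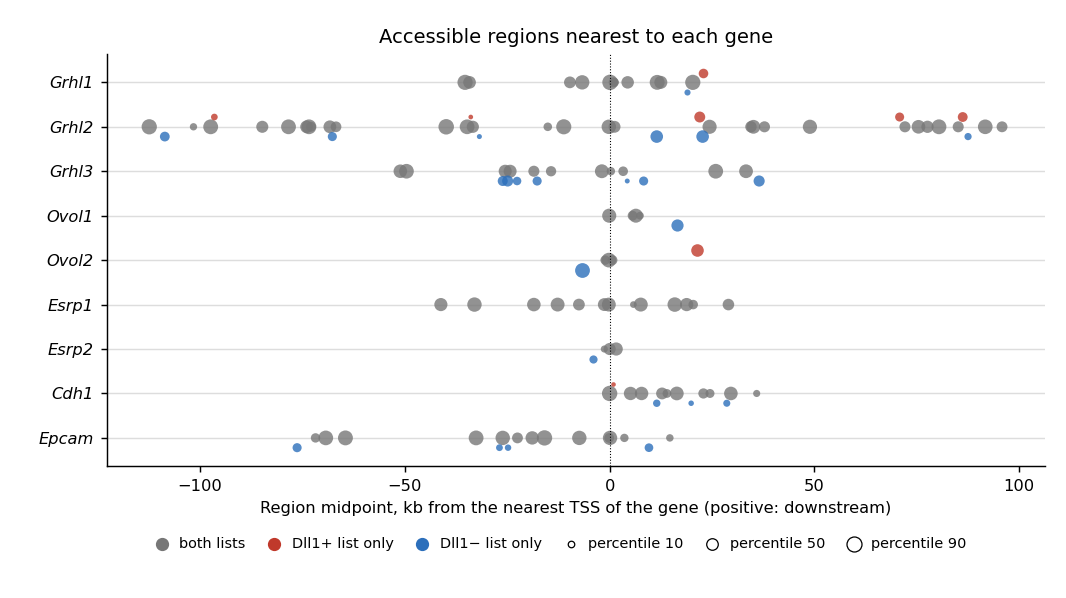
Accessible regions of the 9 genes by the distance of their midpoint from the nearest TSS of the gene, in kb on the horizontal axis, with 1 row per gene. Gray points were in both lists, red points in the Dll1+ list alone and blue points in the Dll1− list alone, and larger points had a higher percentile of fold enrichment. The 24 blue points include 7 at Grhl3, and 5 of the 8 red points lie at Grhl2.

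Introns held 61 of them (47.3%, against 46.9% of all regions), intergenic sequence 51 (39.5%, against 34.7%) and promoters 10 (7.75%, against 11.7%). A further 3 lay in exons of non-coding transcripts, 2 in coding exons, 1 in a 5′ UTR and 1 in a 3′ UTR. The median distance to the TSS was 22.0 kb, and it was 23.1 kb over all regions. The local background, which is the number of reads that the peak caller took as the surrounding level, was high at these genes. Its median over their regions was 3.06 times the genome-wide level in Dll1+ and 2.49 times in Dll1− cells, against 1.43 and 1.24 times over all regions.

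Every one of the 10 TSS regions of the 9 genes was shared, Epcam having 2 of them. Of all TSS regions 94.0% were shared. The percentile was lower in Dll1+ than in Dll1− tumor cells in 9 of the 10, against 70.0% of all shared TSS regions. The count was 6 of 10 when both lists were limited to equal numbers of rows, and 5 of 10 when the mean fold of the rows of a region stood for its strength.

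Cdh1 and Grhl1 had the strongest start sites in the Dll1+ list. The Cdh1 region stood at percentile 92.9 with 200 reads in Dll1+ cells and at 95.1 with 371 reads in Dll1− cells. The Grhl1 region stood at 89.3 with 312 reads and at 96.7 with 670 reads. Those of Ovol2 (78.7 and 86.1), Ovol1 (77.3 and 78.9), Grhl2 (73.1 and 83.0), the stronger Epcam region (72.1 and 81.8), Esrp1 (64.9 and 76.3) and Esrp2 (51.6 and 55.9) followed in the Dll1+ list. The weakest were the other Epcam region, at 33.2 and 29.3, and that of Grhl3, at 18.3 and 22.5. By rank the Grhl3 start site was thus the weakest of the 9 genes in both populations. In reads the ratios of the 10 regions ran from 0.759 at Grhl1 to 1.29 at the weaker Epcam region, with a median of 0.918 against 0.961 over all shared TSS regions.

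**Figure D2:**
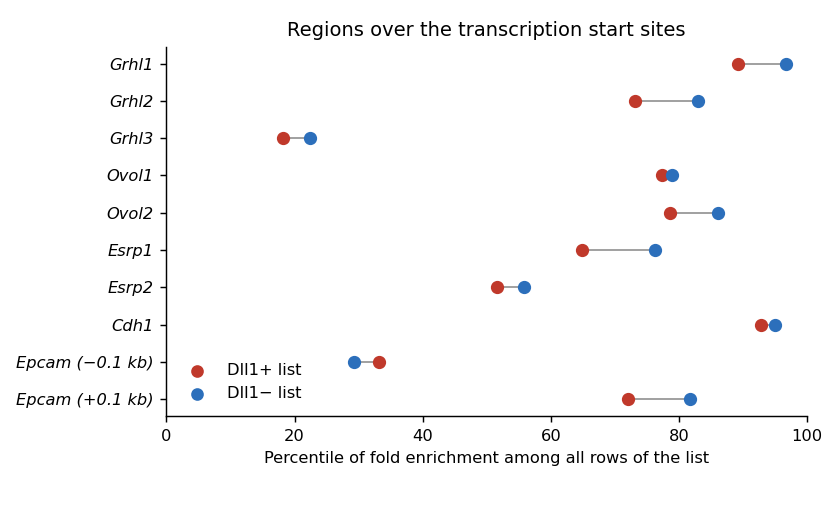
Strength rank of the 10 regions over the start sites, as the percentile of fold enrichment among all rows of a list on a horizontal axis from 0 to 100. Red points are the Dll1+ list and blue points the Dll1− list, with a line joining both values of a region. The blue point lies to the right in 9 of 10 regions, and the Grhl3 region is the weakest of the 9 genes in both lists.

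Over all 97 shared regions, 63 (64.9%) had a lower percentile in Dll1+ tumor cells, against 59.0% of all shared regions. With equal numbers of rows in both lists 95 regions were shared and 48.4% of them were lower, so that the direction of the whole set rests on the threshold of the lists. A difference of more than 20 percentile points was found upward in Dll1+ cells in 4 regions, against 6.39% of all shared regions, and downward in 11, against 11.1%. As a share of the 97 these were 4.12% and 11.3%. A read ratio of at least 1.5 was found in 12 regions (12.4%), against 12.5% of all shared regions, and one of at most 1/1.5 in 11 (11.3%), against 12.3%. The set as a whole thus lay near the background of all regions, and the differences described next are those of single genes and regions.

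**Figure D3:**
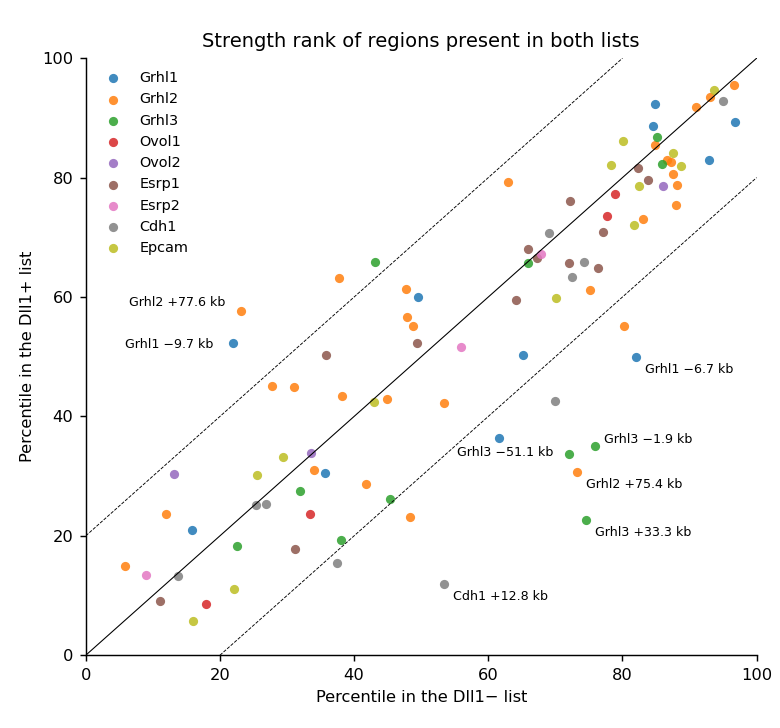
Percentile of fold enrichment in the Dll1− list (horizontal) and in the Dll1+ list (vertical) for the 97 shared regions, colored by gene. The solid line marks equal percentiles and the dashed lines a difference of 20 points. The 11 points below the lower dashed line include 3 each of Grhl2, Grhl3 and Cdh1, and regions that differ by more than 30 points are named by gene and distance from the TSS.

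Grhl3 (chr4:135541888-135573630, minus strand), the grainyhead-like factor best known from epidermal barrier formation, had the most Dll1− specific regions of the 9 genes when regions were counted by nearest TSS. Of its 18 regions 11 were shared (61.1%, against 66.4% of all regions) and 7 were Dll1− specific, where 24.6% of all regions were. The 11 shared regions had read ratios from 0.339 to 1.32 with a median of 0.661, and 10 of them were below 1. A ratio of at most 1/1.5 was found in 6 of the 11, against 12.3% of all shared regions. The percentile was lower in Dll1+ cells in 9 of 11, against 59.0% of all shared regions, and in 6 of 11 with equal numbers of rows.

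The largest rank difference of all 97 shared regions was at Grhl3, 33.3 kb downstream of its TSS. That intergenic region, also printed above, stood at percentile 22.7 with 16 reads in Dll1+ cells and at 74.5 with 77 reads in Dll1− cells, a difference of −51.8 points and a read ratio of 0.339 (0.184 to 0.585). The region 1.9 kb upstream of the TSS, likewise printed, stood at 35.0 with 35 reads and at 75.9 with 145 reads, with a ratio of 0.393 (0.264 to 0.572). The region 51.1 kb upstream, also printed, stood at 33.7 with 24 reads and at 72.0 with 106 reads, with a ratio of 0.369 (0.226 to 0.579). All 3 were thus among the stronger regions of Dll1− cells and among the weaker ones of Dll1+ cells.

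Not every Grhl3 region followed. The strongest in Dll1+ cells, in an intron 25.9 kb downstream, stood at 86.8 and 85.1 with 79 and 130 reads, a ratio of 0.990. The region 24.3 kb upstream went the other way, at 65.8 with 52 reads in Dll1+ cells and 43.1 with 64 reads in Dll1− cells, although its ratio of 1.32 (0.900 to 1.94) had an interval that included 1. Close to it, 2 Dll1− specific regions 24.9 and 26.1 kb upstream had 67 and 56 reads and stood at 45.1 and 35.3 in their list. Within 1 Mb of Grhl3, the 166 shared regions nearest to other genes had a median ratio of 0.854, so lower ratios were not limited to Grhl3. Of all 259 such regions of other genes, 75 were Dll1− specific and 18 Dll1+ specific. The part of these surroundings in the Grhl3 values was not tested.

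Grhl2 (chr15:37233036-37363569, plus strand), the family member most tied to mammary and other simple epithelia, had 40 regions, the most of the 9 genes. They reached from 112.4 kb upstream to 95.8 kb downstream of its TSS. Both lists held 29 of them, and 5 were Dll1+ and 6 Dll1− specific. The strongest in both lists lay 39.9 kb upstream, at percentile 95.6 with 160 reads in Dll1+ and 96.6 with 262 reads in Dll1− cells, a ratio of 0.995. Read ratios of the 29 ran from 0.583 to 2.16 with a median of 1.17, and 19 were above 1. By rank 15 of the 29 were lower in Dll1+ cells, and 13 of 27 with equal numbers of rows.

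Within the introns of Grhl2, neighboring regions differed in opposite directions. The region 75.4 kb downstream stood at 30.6 with 84 reads in Dll1+ cells and at 73.3 with 235 reads in Dll1− cells, a difference of −42.6 points and a ratio of 0.583 (0.449 to 0.750). The next region, 77.6 kb downstream, stood at 57.6 with 130 reads and at 23.1 with 98 reads, a difference of 34.5 points and a ratio of 2.16 (1.65 to 2.84). It had the largest upward rank difference and the largest read ratio of the 97 regions. Other upward differences lay 68.3 kb upstream, at 63.2 and 37.7 with 52 reads in each list, and 72.1 kb downstream, at 45.1 and 27.8 with 50 and 55 reads. The first was the less stable, since its difference of 25.6 points was 4.28 points by the mean fold of its rows.

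The specific regions of Grhl2 did not reach the percentiles of its strongest shared ones. The strongest Dll1+ specific region, 22.0 kb downstream in an intron, had 23 reads and stood at percentile 44.0. Within 1 kb of it, 22.7 kb downstream, lay 1 of the 2 strongest Dll1− specific regions of the gene, which had 49 reads and stood at 60.9. The other, 11.5 kb downstream, had the same number of reads and the same percentile.

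Grhl1 (chr12:24572283-24617391, plus strand), the third family member, had 13 regions, of which 11 were shared and 1 was specific to each list. Its shared regions divided, with 6 ratios above and 5 below 1, a range of 0.485 to 1.63 and a median of 1.25. By rank 6 of the 11 were lower in Dll1+ cells, and 5 of 11 with equal numbers of rows. Upstream of the gene a pair of intergenic regions moved in opposite directions, as at Grhl2. The region 9.7 kb upstream stood at 52.3 in the Dll1+ and 22.0 in the Dll1− list with 40 reads in each, a ratio of 1.63 (1.02 to 2.59). The region 6.7 kb upstream stood at 49.97 with 39 reads and at 82.0 with 131 reads, a ratio of 0.485 (0.330 to 0.698). The strongest Grhl1 region in the Dll1+ list lay 35.3 kb upstream in an intron of Taf1b, at 92.3 with 203 reads, and stood at 84.9 with 206 reads in Dll1− cells, a ratio of 1.61 (1.32 to 1.96).

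Ovol1 (chr19:5549136-5560646, minus strand) and Ovol2 (chr2:144305175-144332146, minus strand), repressors of mesenchymal genes, had 5 regions each. All 4 shared Ovol1 regions had ratios below 1, from 0.688 to 0.890, with intervals that included 1. Its single specific region, 16.4 kb downstream of the TSS in an intron of the pseudogene Gm31166, was in the Dll1− list, with 45 reads at percentile 56.6. The strongest list-specific region of all 9 genes was at Ovol2, 6.8 kb upstream of its TSS (chr2:144338724-144339110). It was in the Dll1− list, with 96 reads, a fold enrichment of 11.8 and percentile 87.3, and of the 29318 Dll1− specific regions of the series 55 (0.188%) ranked as high. Scaled by the median ratio of shared regions its reads come to 58.9, and why the Dll1+ list did not hold it was not tested. The strongest Dll1+ specific region of the 9 genes was also at Ovol2, in an intron 21.3 kb downstream, with 31 reads at percentile 60.7. The 3 shared Ovol2 regions had ratios of 0.897, 1.16 and 1.51.

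Most list-specific regions were weak. Of the 24 Dll1− specific regions 4 stood above the median row of their list (16.7%), against 22.3% of all Dll1− specific regions. Of the 8 Dll1+ specific regions 1 did (12.5%), against 15.4%.

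Esrp1 (chr4:11331933-11386783, minus strand) and Esrp2 (chr8:106130319-106136974, minus strand), paralogous splicing regulators, had few differences in presence. Esrp1 had 13 shared regions and no specific one, with ratios from 0.926 to 2.07, a median of 1.23 and 12 of 13 above 1. Its largest ratio, 2.07 (1.48 to 2.91), belonged to an intronic region 29.0 kb downstream with 84 and 66 reads. In rank, however, 9 of the 13 were lower in Dll1+ cells, and no Esrp1 region differed by more than 20 points. The count of lower regions was 6 of 13 with equal numbers of rows and 5 of 13 when the −log10 p-value took the place of fold, so this majority rests on the measure. Esrp2 had 3 shared regions, with ratios of 1.00, 1.06 and 1.18, and 1 Dll1− specific region 4.0 kb upstream with 93 reads at percentile 20.8.

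The local background is the denominator of fold enrichment. The ratio of local backgrounds, centered in the same way on all shared regions, had a median of 1.40 over the Esrp1 regions, and the local background reached up to 11.9 times the genome-wide level in Dll1+ and 8.30 times in Dll1− cells. Of the 97 regions 19 (19.6%) ranked lower in Dll1+ cells while their read ratio was above 1, which held for 12.7% of all shared regions.

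Cdh1 (chr8:106603351-106670246, plus strand) had 14 regions, and 10 of them were shared, with 1 specific to Dll1+ and 3 to Dll1− cells. The start site was nearly as strong in both lists, whereas introns held the differences. The region 12.8 kb downstream, which carries the 7 motif matches shown above, stood at 11.98 with 75 reads in Dll1+ cells and at 53.4 with 248 reads in Dll1− cells, a difference of −41.4 points and a ratio of 0.493 (0.375 to 0.640). The region 5.1 kb downstream stood at 42.5 with 70 reads and at 69.9 with 194 reads, a ratio of 0.588 (0.441 to 0.777). Of the 10 ratios 9 were below 1, and the median was 0.853. The percentile was lower in 9 of 10, against 59.0% of all shared regions, and in 6 of 10 with equal numbers of rows. The strong intronic region 7.8 kb downstream did not follow, at 70.7 with 108 reads and 69.0 with 188 reads, a ratio of 0.936 (0.732 to 1.19).

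The 3 Dll1− specific regions of Cdh1 had 64 to 128 reads and stood at or below percentile 15.6 of their list. A further 5 regions inside the Cdh1 gene had Tango6 as the nearest TSS and were not counted. Counted by the gene body and 10 kb around it, Cdh1 had 6 more Dll1− specific than Dll1+ specific regions, and Grhl3 had 3 more instead of 7. For Grhl3 the difference, Dll1+ minus Dll1− specific regions, ran from −7 to −2 over all alternative definitions.

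Epcam (chr17:87635979-87651129, plus strand) had 17 regions. Both lists held 13 of them (76.5%, against 66.4% of all regions), with ratios from 0.792 to 1.37 and a median of 0.993. The other 4 were Dll1− specific, near the share of 24.6% over all regions, and no region was Dll1+ specific. The strongest specific one lay 76.3 kb upstream at percentile 27.7 with 29 reads. The strongest Epcam region in both lists lay 15.9 kb upstream, at 94.7 with 378 reads in Dll1+ and 93.7 with 583 reads in Dll1− cells, a ratio of 1.06 (0.926 to 1.205). No shared Epcam region differed by more than 20 percentile points or by 1.5-fold in reads.

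**Figure D4:**
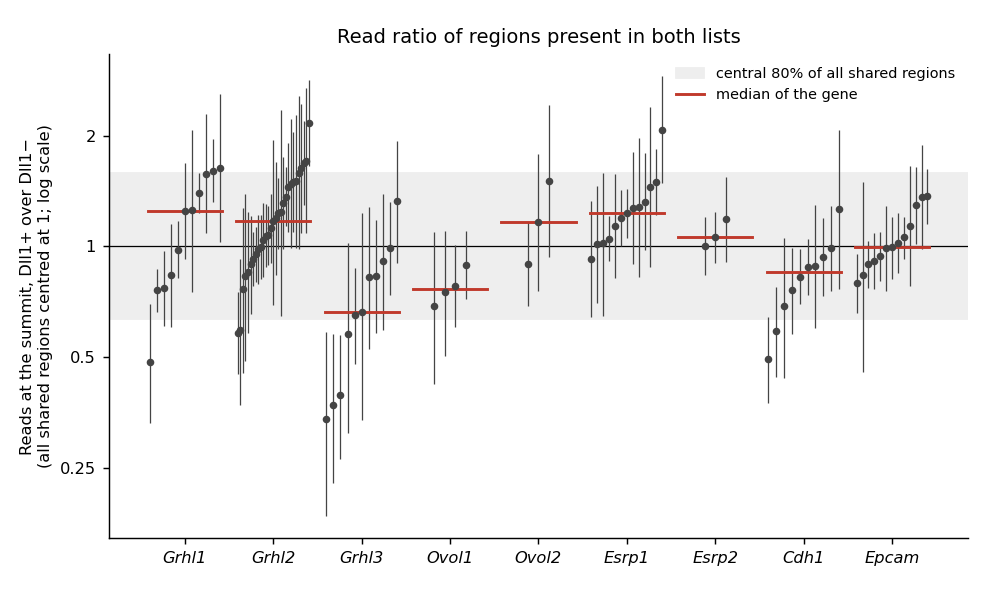
Ratio of reads at the summit, Dll1+ over Dll1− list, for the 97 shared regions by gene on a log axis, divided by the median of all shared regions. Points are regions with exact 95% intervals for counting error, red bars are gene medians, and the gray band holds the central 80% of all shared regions. The Grhl3 median of 0.661 is the lowest of the 9 genes, and 12 of 13 Esrp1 regions lie above 1.

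The gene medians of the read ratio were ordered from Grhl3 (0.661) through Ovol1 (0.765), Cdh1 (0.853), Epcam (0.993), Esrp2 (1.06), Ovol2 (1.16), Grhl2 (1.17) and Esrp1 (1.23) to Grhl1 (1.25). The ranges of regions of neighbors in this order overlapped, although the Grhl3 median lay below every Ovol1 region and the Epcam median below every Esrp2 region. The scale decides where 1 falls in this order. With genome-wide backgrounds in place of the median of shared regions, the medians of Cdh1 and Epcam were 1.01 and 1.17. Those of Grhl3 and Ovol1 stayed below 1 at 0.781 and 0.904, and 73.2% of the 97 ratios were above 1 instead of 51.5%. That scale multiplies the ratio of every shared region of the series by the same factor. The order of the genes was thus unchanged, and 1 was no longer the value of the typical region.

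Values for the surroundings are given beside these medians. Within 1 Mb, shared regions of other genes had median ratios of 0.854 around Grhl3, 0.926 around Ovol1, 0.881 around Cdh1, 0.852 around Esrp2 and 0.962 around Epcam. Around Ovol2, Grhl1, Esrp1 and Grhl2 they were 1.01, 1.04, 1.05 and 1.06. The ratio of local backgrounds at the regions of the genes was 0.829 at Grhl3 and 0.871 at Ovol1, 1.00 at Cdh1, and 1.27 to 1.40 at Grhl2, Grhl1 and Esrp1. At Grhl3 both surroundings, 0.854 and 0.829, lay between the median of the gene and 1. Their part in the gene medians was not tested.

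AP-1, the family of Fos and Jun factors, was the motif whose share varied most with the lists. It was present in 11 of the 24 Dll1− specific regions of the 9 genes (45.8%, 27.9 to 64.9), in 21 of the 97 shared (21.6%, 14.6 to 30.8) and in 1 of the 8 Dll1+ specific ones (12.5%, 2.24 to 47.1). Over all regions of the series the shares were 35.5%, 18.6% and 6.92%, so the 9 genes showed the order that the whole lists show. Among the 11 shared regions that ranked more than 20 points lower in Dll1+ cells 5 held an AP-1 match (45.5%), and among the 4 that ranked higher 0 did, against 40.3% and 6.34% over all regions. Of the 33 regions with a match, 8 were at Grhl3, 4 of them Dll1− specific, and 10 were at Grhl2.

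**Figure D5:**
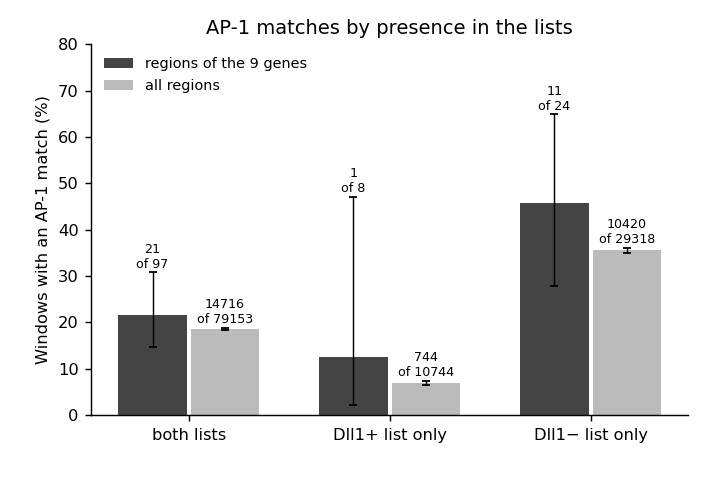
Share of 201-base windows with at least 1 AP-1 match, in percent, for regions of the 9 genes (dark) and all regions of the series (light) by presence in the lists. Bars carry Wilson 95% intervals for counting error and the number of windows. The dark bars stand at 21.6% in both lists, 12.5% in the Dll1+ list alone and 45.8% in the Dll1− list alone.

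The ZEB and SNAI E-box was present in 37 of the 129 windows (28.7%, 21.6 to 37.0), against 18.1% of all regions. In windows of 50 bp on each side of the summit the shares were 17.1% and 10.3%. By presence it was found in 28 of 97 shared (28.9%), 4 of 8 Dll1+ specific (50%) and 5 of 24 Dll1− specific regions (20.8%), where all regions had 18.5%, 17.1% and 17.3%. Grhl2 with 9 and Cdh1 and Epcam with 6 each held most of them. The OVOL motif was present in 5 windows (3.88%, 1.67 to 8.75, against 1.17%), 2 of them at Ovol2 and 1 at Ovol1. The GRHL motif was present in 4 (3.10%, against 3.35%), 2 at Ovol1 and 2 at Cdh1, and in none at the Grhl genes themselves. RBPJ, the DNA-binding partner of Notch, matched 8 windows (6.20%, against 4.30%), TEAD 6 (4.65%, against 5.07%), FOX 2 (1.55%, against 3.73%) and KLF/SP 21 (16.3%, against 13.3%). In the narrower windows the RBPJ share was 0.775%, below the 2.04% of all regions, and the GRHL share was 2.33%, above 2.09%, so neither direction held.

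The 37 other epithelial genes examined, which encode junction, polarity and membrane protease proteins and further epithelial factors, had 508 regions, 70.9% of them shared, with 40 (7.87%) specific to Dll1+ and 108 (21.3%) to Dll1− cells, near the shares over all regions of 66.4%, 9.01% and 24.6%. Dll1− specific regions are the more numerous over the whole series, 29318 against 10744. In 23 of these genes the Dll1− specific regions outnumbered the Dll1+ specific ones, in 3 genes it was the reverse, 2 had equal numbers, 8 had no specific region and 1 had no region. The largest excess of Dll1− specific regions was at Klf5, a zinc finger factor of proliferating epithelia, with 18 against 6 of 50 regions. The polarity genes Pard3, with 18 against 7 of 73 regions, and Pard6b, with 6 against 0 of 18, came next. Such an excess grows with the number of regions, and the counts at Pard3 lay near the shares over all regions. The adherens junction gene Ctnna1, with 7 against 1 of 15 regions, had the same excess as Pard6b. Ctnnd1, which encodes the delta catenin of the adherens junction, and Ubp1, a relative of the grainyhead-like factors, were among the genes with an excess of Dll1+ specific regions, with 1 against 0 each.

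Regions of 10 mesenchymal transition factors (Snai, Twist and Zeb genes, Prrx1, Foxc2 and Tcf4) were shared in 58.9% of 180 (51.6 to 65.8), with 15 (8.33%) Dll1+ specific and 59 (32.8%) Dll1− specific, against 66.4%, 9.01% and 24.6% of all regions. Regions of 9 luminal factors were shared in 64.0% of 214, and those of 11 basal genes in 63.4% of 123. The share at the 9 epithelial identity and adhesion genes, 75.2%, was the highest of these lists, but without replicates the differences between lists could not be tested. Median reads at the summits of their shared regions were also higher, 81 in Dll1+ and 117 in Dll1− cells, against 49.5 and 79.0 for the mesenchymal factors. The part of this difference in the shares was not tested.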

How the data were processed

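ATAC-seq of sorted Dll1+ (3 samples) and Dll1− (4 samples) tumor cells was analyzed from 2 peak lists. Per the study's methods, the authors ran the replicates of each group together through the ENCODE ATAC-seq pipeline, and the optimal peak file of each group was deposited. The aligner, caller, thresholds and versions are not given in the sources used here, and the submitters' processing notes name GRCm38 (mm10). The deposited fold enrichment sets reads at a summit against the local background, as a ratio made by the authors. Each row's deposited −log10 p-value is also theirs. The deposited score (10 times that p-value on the −log10 scale, with an upper limit) and the q-values were not used. Per-sample read counts were not analyzed here.

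The lists held 132872 (Dll1+) and 148923 (Dll1−) rows with median reads at the summit of 43 and 61. Whole reads and backgrounds were recovered from fold and −log10 p, which follow a Poisson model with 1 added to both (tolerance 0.005 in −log10 p), in all rows but 1 of the Dll1− list. That row has no read value. The recovery, merging and ranking steps were tested on simulated data. Overlapping or touching rows of either list gave 119215 merged regions, and the nearest protein-coding TSS came from the basic GENCODE M21 annotation. Motifs were searched within 100 bp of the strongest summit. Promoters run from 1000 bp before a TSS to 100 bp after it. Intervals of shares are Wilson 95% intervals, those of read ratios exact conditional binomial ones, and both cover counting error only, since without molecular identifiers several reads can stem from 1 molecule. The lists have no replicates, so values were described and no test was run. Python 3.11.15 with numpy 2.4.6, pandas 2.3.3, scipy 1.17.1 and matplotlib 3.10.9 was used.

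The genes, gene lists, motifs and definitions were chosen with earlier results of these data known. The genes named are the 9 genes, with the regions over their TSSs, their strongest and their list-specific regions, the 5 shared regions with the largest rank difference in each direction, and of the other epithelial genes 3 in each direction by the excess of specific regions, of which 1 gene is not reported here. Other regions, and the E-box share at start sites, were chosen after their values were seen. Alternatives were other overlap and merging rules, stricter, equal-number and depth-scaled lists, other assignments to genes, other strength measures, other scales of the read ratio and a narrower motif window.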

Additional observations from a re-analysis of the deposited data

How the results depend on the processing

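Of the summary values recomputed under each alternative, 55 kept their direction and stayed near their size (counts within 1.5 times, shares and medians within their 95% intervals), 18 moved further and 1 turned. With rows above the list median fold alone, both lists held 47 regions, with 11 specific to Dll1+ and 13 to Dll1− cells, so that the excess of Dll1− specific regions was nearly lost. With equal numbers of rows in both lists the median rank difference of the shared regions turned from −3.35 to 0.94 points. In that setting 9 regions ranked more than 20 points higher in Dll1+ cells and 48.4% ranked lower at all. Values of all shared regions in that setting are not given here. A shift common to all regions thus cannot be told apart from one of the 9 genes. The median rank difference was −5.54 points as a percentile among regions and −1.37 points by the −log10 p-value. Within 50 kb of a TSS there were 5 Dll1+ specific regions and 2 that ranked more than 20 points higher. With genome-wide backgrounds as the scale, 26 read ratios were at least 1.5 and 5 at most 1/1.5, 73.2% were above 1 and the median was 1.198. This scale moves the ratios of all shared regions of the series upward by the same factor. In windows of 50 bp on each side of the summit the motif shares were 18.6% for AP-1 (15.9% of all regions), 17.1% for the E-box (10.3%), 1.55% for OVOL (0.571%), 1.55% for TEAD (2.96%), 0.775% for RBPJ (2.04%), 0 for FOX (1.96%) and 9.30% for KLF/SP (8.90%). RBPJ thus turned from above to below the share of all regions. Of single genes, the excess of Dll1− specific regions at Grhl2 turned into an excess of 1 Dll1+ specific region with rows above the median fold and of 2 with equal numbers. The median read ratio turned to 1.01 at Cdh1 and 1.17 at Epcam with genome-wide backgrounds, and to 1.03 at Epcam with shared promoter regions as the scale. Both scales multiply the ratios of all shared regions by a common factor, so these turns leave the order of the genes unchanged. With reads summed over summits the median turned to 0.978 at Esrp2 and 1.03 at Epcam. The cause of the other changes was not tested.

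The 5 largest downward rank differences, 3 of them at Grhl3, ran from −56.3 to −28.0 points over all alternatives. No paired analysis was possible because each list pools its samples, and for the same reason no sample could be left out. Presence in a list is limited by depth, which was lower in the Dll1+ list. The Dll1− list scaled to the Dll1+ depth gave the same 97, 8 and 24 regions. That scaling kept 97.6% of the rows, so it could change few counts, and the part of depth was not tested.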
